A study of Homo sapiens with 6 samples.

Results

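The genes that write and erase the phosphate on the translation factor eIF2α were followed in HCT116 cells, an established human colon carcinoma line, with and without curcumin, the yellow polyphenol of turmeric. They were chosen by name, with no measured value in the rule: the 4 eIF2α kinases EIF2AK1, EIF2AK2, EIF2AK3 and EIF2AK4, the 2 regulatory subunits of the eIF2α phosphatase PPP1R15A and PPP1R15B, and the 3 catalytic subunits of protein phosphatase 1 (PP1), PPP1CA, PPP1CB and PPP1CC. Earlier results of these data were known when these genes were chosen. All 9 were found among the 35106 rows of the deposited gene table, and all 9 passed the filter on low counts. Transcripts were measured by RNA sequencing in 6 libraries, 3 labelled with treatment none and 3 with curcumin. Both groups are wild type by label, and the labels do not say whether the control cells received the solvent. The curcumin cells had 24 h of treatment at 30 µM, where the labels print the unit as μm. Nothing in the labels ties the replicates to separate cultures, so each p-value below measures only how far these libraries scatter, and that scatter may be technical.

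The factor eIF2 brings the initiator tRNA to the ribosome, and its exchange factor eIF2B reloads it with GTP. Phosphorylation of the α subunit turns eIF2 into an inhibitor of eIF2B, which lowers bulk protein synthesis while mRNAs such as those of ATF4 and CHOP go on being translated. This is the integrated stress response. Each kinase answers to its own signal: EIF2AK1 (HRI) to haem shortage, oxidative and mitochondrial stress, EIF2AK2 (PKR) to double-stranded RNA, EIF2AK3 (PERK) to misfolded protein in the endoplasmic reticulum (ER), and EIF2AK4 (GCN2) to uncharged tRNA. The phosphate is removed by PP1, which is steered to eIF2α by PPP1R15B (CReP), the constitutive subunit, or by PPP1R15A (GADD34), the subunit that is itself induced by the stress response.

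The start-site regions of 3 members are shown because the first rose most, the second is its constitutive partner, and the third is the interferon-inducible kinase gene that fell. Each runs 5′ to 3′ on the gene's own strand from 250 bases before the annotated start to 20 bases after it, and comes from RefSeq (GRCh38.p14), which held an entry for 7 of the 9 members; EIF2AK1 and PPP1CA were not matched. The RefSeq starts used here are not the same bases as the gene boundaries given below, which come from GENCODE release 29. Capitals mark the motif matches named after the sequences.
PPP1R15A (chr19:48872171-48872440, plus strand): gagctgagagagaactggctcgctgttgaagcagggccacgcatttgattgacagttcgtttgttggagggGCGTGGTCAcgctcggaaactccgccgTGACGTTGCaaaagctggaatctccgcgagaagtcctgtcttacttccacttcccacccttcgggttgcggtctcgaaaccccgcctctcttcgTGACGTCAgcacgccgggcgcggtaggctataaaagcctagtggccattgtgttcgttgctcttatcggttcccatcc
PPP1R15B (chr1:204411798-204412067, minus strand): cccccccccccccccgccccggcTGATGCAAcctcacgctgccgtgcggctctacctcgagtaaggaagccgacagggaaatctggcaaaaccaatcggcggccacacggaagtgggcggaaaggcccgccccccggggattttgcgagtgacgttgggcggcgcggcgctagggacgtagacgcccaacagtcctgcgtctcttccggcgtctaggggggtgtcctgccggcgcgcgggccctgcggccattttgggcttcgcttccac
EIF2AK2 (chr2:37156961-37157230, minus strand): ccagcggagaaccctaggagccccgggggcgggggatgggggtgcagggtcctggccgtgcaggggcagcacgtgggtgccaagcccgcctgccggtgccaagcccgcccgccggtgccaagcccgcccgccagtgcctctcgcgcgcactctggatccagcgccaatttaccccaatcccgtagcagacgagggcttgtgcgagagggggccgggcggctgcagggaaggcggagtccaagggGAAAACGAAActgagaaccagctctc
On both strands of the 300-base windows, 6 motifs were searched. The cyclic AMP response element TGACGTCA, bound by ATF and CREB factors, stood in PPP1R15A at bases -58 to -51 from the start and in 1.85% of all 35116 windows. The antioxidant response element TGACNNNGC matched at 2 places in PPP1R15A, at -152 to -144 and, on the other strand, at -179 to -171, against 13.3% of all windows with at least 1 match; it also matched in PPP1CB. The C/EBP-ATF composite element TGATGNAA matched in PPP1R15B at -227 to -220 (3.62% of windows), and the interferon-stimulated response element, GAAA and GAAA with any 2 bases between them, matched in EIF2AK2 across the start, from -6 to 4 (3.57%). The heat shock core GAANNTTC (6.77% of windows) and the ER stress response element, CCAAT and CCACG with any 9 bases between them (0.0769%), were in none of the members' windows. None of the marked matches overlap each other, and a match describes these letters only.

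Library totals ran from 16663562 to 20311769 counts. Levels are given in CPM, the counts of a library rescaled to one common total after TMM scaling (factors 1.30 to 1.34 in untreated and 0.716 to 0.804 in curcumin libraries), and a gene was called when the Benjamini-Hochberg adjusted p of edgeR's quasi-likelihood test over all 13718 tested genes was under 0.05. By that rule 27.2% of tested genes were higher and 28.9% lower after curcumin. A rise or fall is a change in a gene's share of its library, so fewer cells and less RNA per cell cannot be told apart. With library size alone in place of TMM the median log2 fold change of all tested genes moved by -0.80, to -0.84, and across protein-coding genes the median fell with transcript length, from 0.81 in the shortest of 5 equal bins (207 to 1955 bases) to -0.72 in the longest bin (from 5745 bases). The epithelial markers EPCAM, CDH1, KRT8, KRT18, KRT19, CDX2, VIL1 and CLDN4 summed to 4141 to 4856 CPM in untreated and 7275 to 8482 CPM in curcumin libraries, with KRT8, KRT18, KRT19 and EPCAM called higher. CLDN4 and CDX2 were called lower (log2 fold changes -2.96 and -1.40, edgeR adjusted p = 4.3e-05 and 0.00058), and VIL1 was under 0.9 CPM in every library. Of the leukocyte markers CD3E was at 0 in every library, PTPRC stayed under 0.6 CPM, and CD14 rose from at most 0.568 CPM to 11.2, 17.6 and 28.8 CPM; among 7 endothelial and fibroblast markers (summed 27.2 to 32.9 CPM untreated, 24.6 to 65.5 CPM curcumin) PECAM1 rose from at most 0.157 to 6.65, 13.0 and 24.99 CPM, while CDH5, COL1A2, PDGFRB and DCN stayed under 0.4 CPM. COL1A1, most of the untreated sum, was at 30.0, 25.6 and 30.2 CPM untreated and 16.3, 14.9 and 37.5 CPM with curcumin. VWF was at 1.15 to 1.93 CPM untreated and 1.64 to 3.33 CPM with curcumin, and neither gene was called. The part of all these markers in the results was not tested.

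Individual libraries stood apart within their groups. Untreated replicate 2 had the lowest value of the 3 untreated libraries for 24 of 26 tested targets of the integrated stress response, or 92.3%, against 40.3% of all tested genes. Set against the mean of the other untreated libraries, the median log2 difference of that library was -0.83 over these targets and -0.01 over all tested genes. It was also lowest for 11 of 14 interferon genes, but for only 1 of the 9 members, PPP1R15A. Curcumin replicate 3 was the highest curcumin library for 5 of the 9 members and for 41.3% of all tested genes. Its EIF2AK3 value lay 1.64 above the mean of curcumin replicates 1 and 2 on the log2 scale, a gap that 1.09% of tested genes reached.

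Of the 9 genes, 3 were called higher (PPP1R15A, EIF2AK3 and PPP1CC) and 2 lower (EIF2AK2 and EIF2AK4), beside 27.2% higher and 28.9% lower among all tested genes, so the count of calls was near the background. The size was not alike: PPP1R15A rose 24.7-fold, while the other 8 genes had fold changes between 0.643 and 2.47. The median log2 fold change of the 9 was 0.26, beside -0.04 over all tested genes. The groups did not overlap for the 5 called genes and overlapped for the other 4; over all tested genes 64% did not overlap. With library size alone 1 member was called higher (PPP1R15A) and 7 lower, beside 9.62% and 56.5% of all genes. With the length trend removed 3 were higher (PPP1R15A, EIF2AK3 and EIF2AK1) and 1 lower (PPP1CA), beside 25.5% and 22.5%. Without curcumin replicate 3 the counts were 4 higher and 3 lower, beside 27.5% and 30.8%. With the 100 most abundant genes left out of the library size they were 1 and 3, beside 18.4% and 40.7%. Only 1 member was higher without untreated replicate 1 (23.2% of all genes) or 3 (23.4%), and 1 lower without untreated replicate 2 (25.9%). PPP1R15A was the only member called in the same direction under all 16 alternatives tried.

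**Figure D1:**
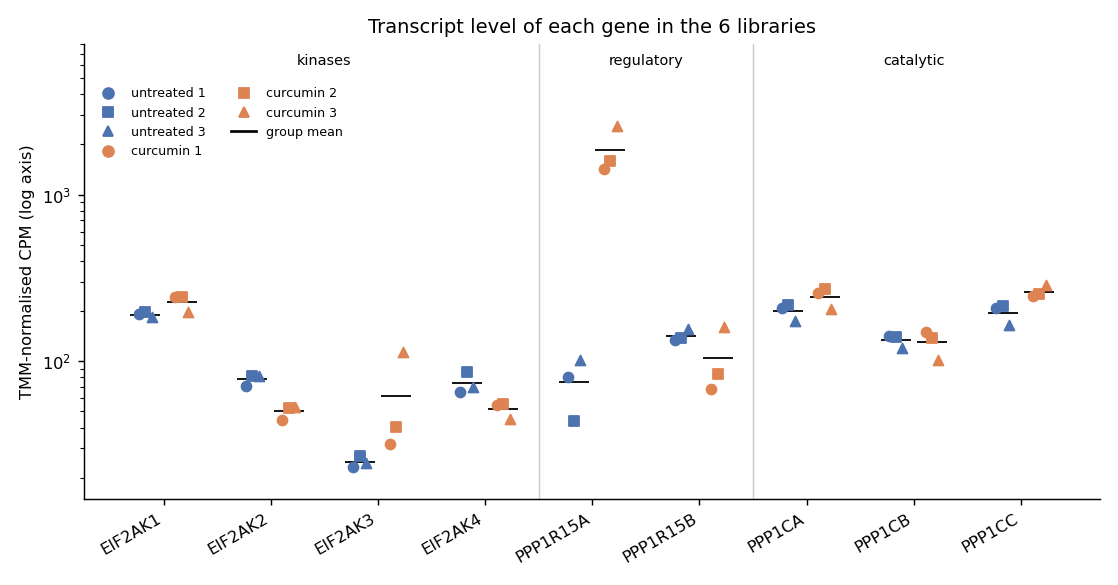
TMM-normalised CPM (log axis) of the 9 genes in each untreated (blue) and curcumin (orange) library; marker shape gives the replicate number and the black line the group mean. PPP1R15A lies at 1423 to 2563 CPM in curcumin libraries against 44.0 to 101 CPM in untreated ones, and the triangle of curcumin replicate 3 lies far above the other curcumin points for EIF2AK3 and PPP1R15B.

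PPP1R15A, the stress-induced subunit that brings PP1 to eIF2α (ENSG00000087074, chromosome 19, 48872392 to 48876057 on the plus strand of GRCh38, 3 exons), rose in every curcumin library. It stood at 80.9, 44.0 and 101 CPM in untreated replicates 1 to 3 and at 1423, 1595 and 2563 CPM in curcumin replicates 1 to 3. The lowest curcumin library was thus far above the highest untreated library, and untreated replicate 2, the low one, is also the library in which most other stress response targets were lowest. In raw counts the range was 1071 to 2572 untreated and 19057 to 32813 with curcumin, so counting error was small. The log2 fold change was 4.63 ± 0.35 (SE, n = 3 per group; edgeR adjusted p = 1.4e-05), the 148th highest of the 13718 tested genes. It was 4.34 without untreated replicate 2, 4.33 without curcumin replicate 3, 3.81 with library size alone and 4.40 once the length trend was removed, called each time. The promoter of this gene is the one printed above with a cyclic AMP response element 58 bases before the RefSeq start. That start is not the same base as the gene start given in this paragraph.

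PPP1R15B, the constitutive partner subunit (ENSG00000158615, chromosome 1, 204403387 to 204411791, minus strand, 2 exons), did not rise with it. Its values were 135, 138 and 155 CPM in untreated cells and 68.0, 83.6 and 161 CPM with curcumin. Curcumin replicates 1 and 2 lay below all untreated libraries and curcumin replicate 3 above them, so the groups overlapped. The log2 fold change of -0.45 ± 0.27 was not called (edgeR adjusted p = 0.19; 95% interval -1.06 to 0.16). Without curcumin replicate 3 it was -0.91 and called lower (adjusted p = 0.00088), and it was also called lower with the replicate block (-0.55, adjusted p = 0.043), with no filter (-0.54, 0.036), with library size alone (-1.28, 0.00078) and with a library size that leaves out the 100 most abundant genes (-0.83, 0.016). With the length trend removed it was -0.02 (adjusted p = 0.94).

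The balance between the regulatory subunits was read within each library, where the scaling between libraries cancels. There were 0.601, 0.318 and 0.652 PPP1R15A counts per PPP1R15B count in untreated replicates 1 to 3, and 20.9, 19.1 and 15.9 in curcumin replicates 1 to 3. Every curcumin library held more PPP1R15A than PPP1R15B and every untreated library less, in counts. The log2 ratio rose from -1.0 ± 0.57 to 4.21 ± 0.20 (SD, n = 3), a difference of 5.21 or 37.0-fold (p = 0.1 in an exact two-sided permutation test, the lowest value possible with 3 libraries a group; adjusted p = 0.15 over the 6 ratios tested). With the length trend removed the difference was 4.54 (exact permutation p = 0.1). Per kilobase of transcript, PPP1R15A made up 56.9, 41.2 and 58.9% of the pair in untreated cells and 97.9, 97.7 and 97.2% with curcumin. Measured against the 3 catalytic subunits it can bind, PPP1R15A had 0.0773 to 0.220 counts per summed catalytic count in untreated and 2.18 to 4.33 in curcumin libraries (log2 difference 4.39, exact permutation p = 0.1). Per kilobase that ratio was 0.0715 to 0.206 and 2.0 to 3.97, so PPP1R15A transcripts outnumbered those of the summed catalytic subunits in all 3 curcumin libraries and in none of the untreated ones.

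**Figure D2:**
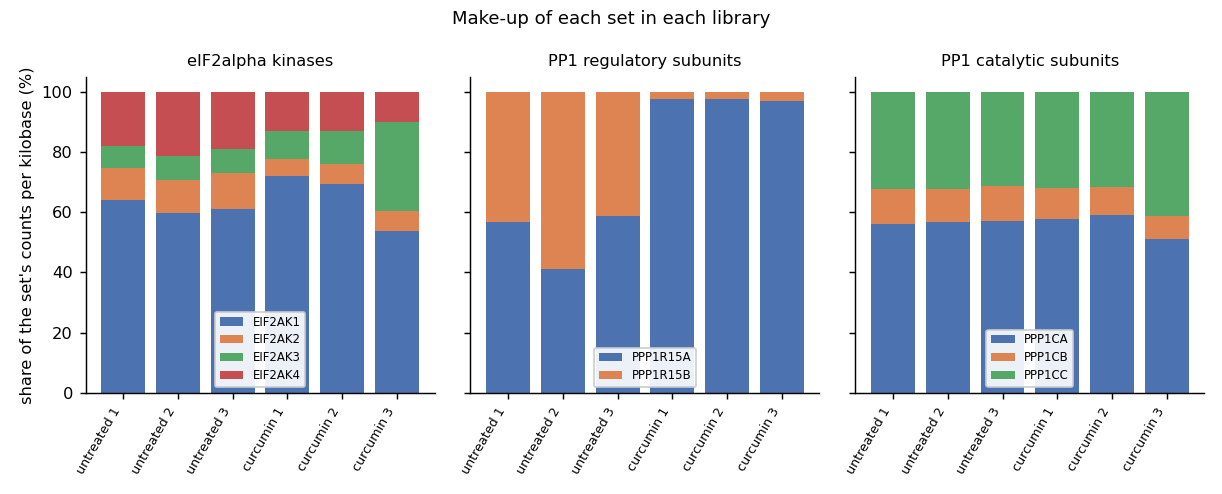
Stacked bars give each gene's share (%) of its set's counts per kilobase of the longest coding transcript, 1 bar per library, for the kinases, the regulatory subunits and the catalytic subunits. PPP1R15A fills over 97% of its pair in every curcumin bar, and EIF2AK3 widens to 29.7% of the kinases in curcumin replicate 3.

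The kinase genes did not move together. EIF2AK3 was called higher, EIF2AK2 and EIF2AK4 lower, and EIF2AK1, the most abundant, was not called. Summed per kilobase the 4 kinases stood at 69.2 ± 3.96 CPM per kb in untreated and 78.6 ± 3.19 CPM per kb in curcumin cells (SD, n = 3).

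EIF2AK3, which encodes PERK, the kinase that spans the ER membrane (ENSG00000172071, chromosome 2, 88556741 to 88627576, minus strand, 17 exons), had 23.3, 27.1 and 24.5 CPM in untreated cells and 31.7, 40.4 and 113 CPM with curcumin. All curcumin values exceeded all untreated ones, and replicate 3 lay far above the other curcumin libraries. The log2 fold change was 1.30 ± 0.40 (edgeR adjusted p = 0.018; 95% interval 0.42 to 2.19). Without curcumin replicate 3 it was 0.53 and still called (adjusted p = 0.021), so the direction did not rest on that library while most of the size did. The call did not survive leaving out untreated replicate 1 (adjusted p = 0.066) or 3 (0.056), and was lost with library size alone (0.46, adjusted p = 0.27) and with the 100 most abundant genes left out of it (0.92, adjusted p = 0.051), and the fold change was positive under all 16 alternatives. Its share of the kinase counts per kilobase was 7.51 to 7.90% in untreated cells and 9.04, 11.1 and 29.7% with curcumin. The count ratio of EIF2AK3 to EIF2AK1 was 0.122 to 0.137 in untreated and 0.131, 0.166 and 0.573 in curcumin libraries, with overlap between the groups (log2 difference 0.82, exact permutation p = 0.3; 0.17 without curcumin replicate 3).

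EIF2AK2, the interferon-inducible RNA-sensing kinase PKR (ENSG00000055332, chromosome 2, 37099210 to 37157065, minus strand, 17 exons), fell from 71.6, 81.3 and 81.4 CPM to 44.5, 52.6 and 53.4 CPM. The groups did not overlap, and the log2 fold change was -0.64 ± 0.15 (edgeR adjusted p = 0.0041). The call was kept in 15 of 16 alternatives. The exception was removal of the length trend, which turned it to 0.21 (edgeR adjusted p = 0.22). That fit used its longest coding transcript, whose 10042 bases fall in the longest of the 5 bins (median log2 fold change -0.72). Its principal transcript of 4343 bases falls in the bin of 4005 to 5745 bases, whose median was -0.36. A fit with that shorter length was not tested.

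EIF2AK4, the amino acid sensor GCN2 (ENSG00000128829, chromosome 15, 39934146 to 40035591, plus strand, 39 exons), fell from 65.3, 86.7 and 69.8 CPM to 54.4, 55.2 and 45.0 CPM, also with no overlap (-0.52 ± 0.16, edgeR adjusted p = 0.020). It was not called without untreated replicate 2, its highest library (-0.41, adjusted p = 0.059), nor with the length trend removed (-0.04, adjusted p = 0.86). EIF2AK4 and EIF2AK2 kept about the same proportion to each other: the count ratio was 0.858 to 1.07 in untreated and 0.842 to 1.22 in curcumin libraries, which overlapped (log2 difference 0.12, exact permutation p = 0.7).

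EIF2AK1, which encodes the haem-regulated kinase HRI (ENSG00000086232, chromosome 7, 6022244 to 6059230, minus strand, 15 exons), stood at 191, 197 and 184 CPM in untreated and 243, 243 and 197 CPM in curcumin libraries. Curcumin replicate 3 fell within the untreated range. The log2 fold change of 0.26 ± 0.14 was not called (edgeR adjusted p = 0.14; 95% interval -0.05 to 0.57). It was called higher without curcumin replicate 3 (0.35, adjusted p = 0.046) and after removal of the length trend (0.56, adjusted p = 0.0088), and lower with library size alone (-0.54, adjusted p = 0.011), where the median gene was at -0.84. It remained the leading kinase, with 59.8 to 64.0% of kinase counts per kilobase in untreated and 53.8 to 72% in curcumin libraries.

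**Figure D3:**
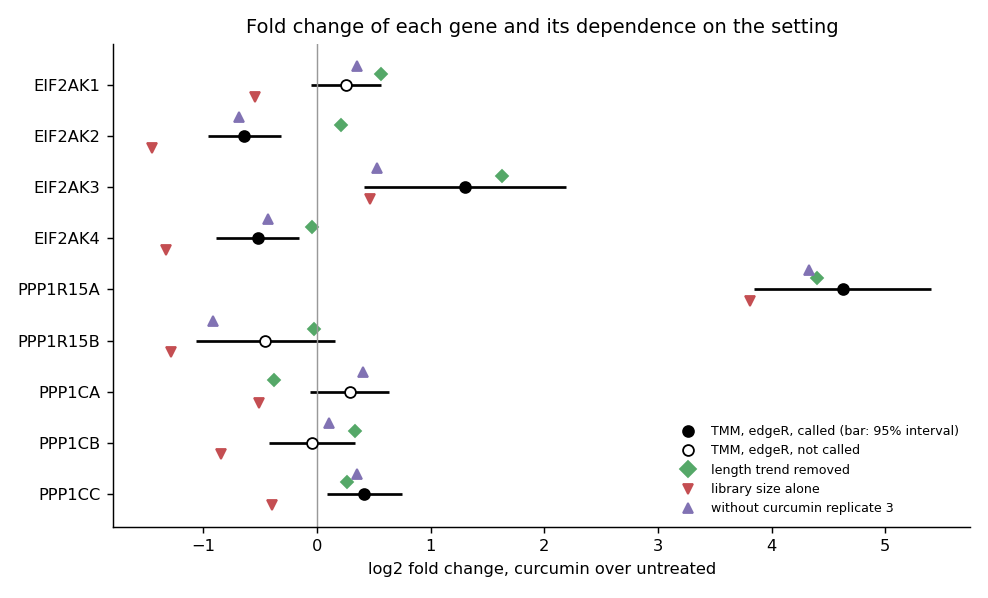
Log2 fold change (curcumin over untreated) of each gene: circles with 95% interval bars are the TMM-scaled edgeR fit, filled where called, and coloured symbols are the length-adjusted fit, the fit with library size alone and the fit without curcumin replicate 3. PPP1R15A stays between 3.81 and 4.63 in these fits, while EIF2AK1, EIF2AK2 and the 3 catalytic genes lie on both sides of 0.

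The catalytic subunits of PP1, which serve many regulatory partners besides the PPP1R15 proteins, moved little. PPP1CC (ENSG00000186298, chromosome 12, 110719680 to 110742939) was at 208, 214 and 164 CPM in untreated and 246, 252 and 286 CPM in curcumin libraries, without overlap, and was called higher (0.42 ± 0.15, edgeR adjusted p = 0.036). That call was lost when any one of untreated replicates 1 and 3 and curcumin replicates 1, 2 and 3 was left out (adjusted p = 0.059 to 0.14), with the replicate block (0.055), with no filter (0.11), once the length trend was removed (0.17) and with the 100 most abundant genes left out of the library size (0.05, adjusted p = 0.76), and it turned with library size alone (-0.39, adjusted p = 0.041). PPP1CA (ENSG00000172531, chromosome 11, 67398183 to 67421183) was at 209, 216 and 174 CPM and then 256, 272 and 205 CPM, overlapping and not called (0.29 ± 0.16, adjusted p = 0.14), but called higher without curcumin replicate 3 (0.40, adjusted p = 0.044). PPP1CB (ENSG00000213639, chromosome 2, 28751640 to 28802940) was at 143, 139 and 121 CPM and then 150, 139 and 101 CPM, overlapping and not called (-0.05 ± 0.17, adjusted p = 0.84; 95% interval -0.42 to 0.33). With library size alone PPP1CB was called lower (-0.84, edgeR adjusted p = 0.0023), where the median gene was also at -0.84.

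Within libraries the catalytic genes shifted slightly against each other. PPP1CA had 1.44 to 1.56 counts per PPP1CB count in untreated and 1.71, 1.96 and 2.03 in curcumin libraries (log2 difference 0.35, exact permutation p = 0.1, adjusted p = 0.15). PPP1CC had 1.36 to 1.54 counts per PPP1CB count in untreated and 1.64, 1.82 and 2.82 in curcumin libraries (0.49, p = 0.1 by the same exact permutation test). Neither ratio overlapped between the groups, and both turned negative once the length trend was removed (-0.70 and -0.06); PPP1CB has the longest transcript of the 3, with 4893 bases against 1476 for PPP1CA and 2559 for PPP1CC. None of the values of PPP1CA, PPP1CB or PPP1CC was a whole number (within 0.01) in any of the 6 libraries. The same held for EIF2AK1, and only 11.83% of genes with a mean of at least 50 counts had whole values throughout. Fractional values are thus not particular to the catalytic genes, and how the authors' counting shared reads between similar genes is not known.

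Levels were compared between genes per kilobase of the longest coding transcript. In untreated cells the order ran from PPP1CA (135 ± 15.4 CPM per kb, SD, n = 3) through PPP1CC (76.4 ± 10.6) and EIF2AK1 (42.6 ± 1.52) to PPP1R15A (31.7 ± 12.2), PPP1CB (27.4 ± 2.44) and PPP1R15B (27.3 ± 2.10), and on to EIF2AK4 (13.5 ± 2.05), EIF2AK2 (7.77 ± 0.561) and EIF2AK3 (5.37 ± 0.415). PPP1R15A ranged over 18.5 to 42.5 CPM per kb and so did not separate from EIF2AK1, PPP1CB or PPP1R15B. PPP1CB and PPP1R15B also overlapped, while the other neighbours in this order did not. With curcumin PPP1R15A stood first at 782 ± 258 CPM per kb, above PPP1CA (165 ± 23.5) and PPP1CC (102 ± 8.35). EIF2AK1 followed at 51.0 ± 5.94, then PPP1CB at 26.6 ± 5.21 and PPP1R15B at 20.0 ± 9.58. EIF2AK3 was at 13.3 ± 9.60, EIF2AK4 at 9.37 ± 1.03 and EIF2AK2 at 5.00 ± 0.492 CPM per kb. Here PPP1CB, PPP1R15B, EIF2AK3 and EIF2AK4 overlapped with their neighbours, and the rest of the order did not overlap. The place of EIF2AK2 depends on the transcript counted on: with its shorter principal transcript of 4.343 kb its untreated level was 18.0 ± 1.30 CPM per kb, above EIF2AK4. The same holds for PPP1CB, which with its principal transcript of 3.527 kb stood at 38.03 CPM per kb (34.2 to 40.5), above the mean of PPP1R15A and without overlap with PPP1R15B.

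Genes whose profile over the 6 libraries lay nearest to that of a member were found by the root mean square difference of centred log2(CPM + 0.5). For PPP1R15A these were GADD45B, a growth arrest gene (0.29; 13.6 to 23.1 CPM untreated, 462 to 842 CPM curcumin), COL2A1 (0.31) and the marker gene CD14 (0.37). CD14 and COL2A1 were at most 0.568 and 0.197 CPM in untreated cells, so their distance depends on the added 0.5 CPM, and their fitted log2 fold changes of 5.74 and 7.72 differ from the 4.63 of PPP1R15A. For PPP1R15B they were the deubiquitinase gene USP42 (0.06), CHPF2 (0.07) and EPHB3 (0.08). For EIF2AK3 they were TRIML2 (0.08), RLF (0.13) and VPS37B (0.13). The genes nearest to PPP1R15B and EIF2AK3 shared their high value in curcumin replicate 3: USP42 had 13.6, 15.5 and 30.5 CPM and RLF 34.0, 52.8 and 112 CPM in curcumin replicates 1 to 3.

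The substrate and its exchange factor were described by 10 genes of eIF2, eIF2B and their partners. Of these 6 were called higher and 0 lower, beside 27.2% and 28.9% of all tested genes, with a median log2 fold change of 0.54. EIF2S1, which encodes the phosphorylated α subunit itself, was at 76.9, 106 and 64.7 CPM untreated and 112, 104 and 105 CPM with curcumin, overlapping and not called (0.37, edgeR adjusted p = 0.11). It was called higher without untreated replicate 2, its highest untreated library (0.58, adjusted p = 0.011), and after removal of the length trend (0.68, adjusted p = 0.015). The γ subunit gene EIF2S3, named with EIF2B1, EIF2B3, EIF2B4 and EIF2B5 after the values were seen, rose from 253 to 303 CPM to 477 to 565 CPM (0.90, adjusted p = 0.00044). EIF2B2, a regulatory subunit of eIF2B, rose by 1.23 on the log2 scale (adjusted p = 0.00024), and EIF5, the GTPase-activating partner of eIF2, by 1.53 (adjusted p = 7.3e-05). Of the eIF2B genes EIF2B3 and EIF2B5 also rose, and EIF2B1 and EIF2B4 were not called. With library size alone the list had 1 gene higher (EIF5) and 3 lower (median -0.26). In that setting 9.62% of all tested genes were higher and 56.5% lower (median -0.84).

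Of 14 regulators of the kinases, 7 were higher and 3 lower (median 0.37), against 27.2% and 28.9% of all tested genes. HSP90AB1 and CDC37, chaperones through which kinases such as HRI and PKR mature, rose by 3.05 and 1.34 on the log2 scale (edgeR adjusted p = 3.8e-05 and 4.0e-05). DELE1, the mitochondrial messenger that activates HRI, rose from 35.0 to 41.3 CPM to 69.3 to 80.6 CPM (0.91, adjusted p = 0.00055; 0.11, adjusted p = 0.58 with library size alone), and OMA1, the protease that cuts DELE1, was not called (-0.28, adjusted p = 0.29). PRKRA, the activator of PKR, had a log2 fold change of 0.47 (adjusted p = 0.046) that was -0.02 with the length trend removed, and its call was kept in 7 of 16 alternatives. ADAR, which edits double-stranded RNA, fell (-0.80, adjusted p = 0.0013), though not with the length trend removed (-0.16, adjusted p = 0.42), and so did NCK1, an adaptor that binds PERK (-1.15, adjusted p = 0.0022). GCN1, the activator of GCN2, was not called (-0.33, adjusted p = 0.076). It was called higher with the length trend removed (0.47, adjusted p = 0.025) and lower in 4 other alternatives, among them without untreated replicate 1 (-0.45, adjusted p = 0.039).

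Both ER regulators of PERK that follow had their highest curcumin value in replicate 3. HSPA5 (BiP), the ER chaperone that holds PERK inactive, was at 978, 1001 and 1147 CPM untreated and 1201, 1490 and 3616 CPM with curcumin (1.01, edgeR adjusted p = 0.030), and was not called without curcumin replicate 3 (0.37, adjusted p = 0.10); its call was kept in 9 of 16 alternatives. DNAJC3 (P58IPK), an inhibitor of PERK and PKR, was at 32.0, 35.8 and 58.4 CPM with curcumin against 55.9 to 81.5 CPM untreated (-0.63, adjusted p = 0.049; -0.94, adjusted p = 0.0026 without curcumin replicate 3; -0.15, adjusted p = 0.62 with the length trend removed); its groups overlapped, and the call was kept in 7 of 16 alternatives. Among 7 genes of the other ER stress sensors 2 were higher and 4 lower (median -0.69), against 27.2% and 28.9% of all tested genes. ERN1 and ATF6, named after their values were seen, were called lower (-1.06 and -0.93, edgeR adjusted p = 0.010 and 0.0037). Neither call was kept with the length trend removed (-0.32 and -0.21, adjusted p = 0.325 and 0.425). The ER stress transcription factor XBP1 had 124, 148 and 242 CPM with curcumin against 85.8 to 120 CPM untreated (0.71, adjusted p = 0.029). Its log2 fold change was 0.37 (adjusted p = 0.089) without curcumin replicate 3 and 0.24 (adjusted p = 0.47) with the length trend removed. The XBP1 call was kept in 10 of 16 alternatives. The proteases MBTPS1 and MBTPS2, which cleave ATF6, fell by 0.69 and 1.05 on the log2 scale (adjusted p = 0.0014 and 0.00059). ATF6B was called higher (1.80, adjusted p = 0.018), its groups did not overlap, and the call was kept in 14 of 16 alternatives. Its values were uneven within the untreated group (1.25, 8.75 and 3.30 CPM). It lies in the major histocompatibility region, and the part of that location in its values was not tested.

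The interferon list, to which EIF2AK2 belongs by its regulation, had 2 genes higher and 6 lower of 14 tested (median -0.53), against 27.2% and 28.9% of all tested genes. Without untreated replicate 2, the lowest untreated library for 11 of these 14, the counts were 2 and 8, beside 25.8% and 25.9%. The RNA sensors RIGI and IFIH1 fell by 1.61 and 1.68 on the log2 scale (edgeR adjusted p = 0.00076 and 0.0032), as EIF2AK2 did, whereas the ubiquitin-like modifier ISG15 rose by 0.79 (adjusted p = 0.0032) and turned to -0.01 with library size alone and to -0.37 with the length trend removed. DHX58, a further RNA sensor, rose from low levels (0.747 to 1.48 CPM) to 3.51 to 4.37 CPM.

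Downstream of eIF2α, 8 of 26 tested stress response targets were higher and 7 lower (median 0.14), beside 27.2% and 28.9% of all genes. Without untreated replicate 2 the counts were 7 higher and 10 lower, beside 25.8% and 25.9% of all genes, and the median turned to -0.15. Without curcumin replicate 3 they were 7 and 6 with a median of -0.03, beside 27.5% and 30.8% of all genes. ATF4, the transcription factor translated when eIF2α is phosphorylated, rose from 492, 277 and 430 CPM to 784, 909 and 1318 CPM (1.33, edgeR adjusted p = 0.0013), and was not called with library size alone (0.51, adjusted p = 0.057). DDIT3 (CHOP), an activator of PPP1R15A transcription, rose from 19.2, 5.67 and 19.4 CPM to 94.1, 130 and 227 CPM (3.34, adjusted p = 0.00022). SLC3A2, an amino acid transporter chain, and SHMT2, a serine enzyme, rose by 2.21 and 1.14 on the log2 scale (adjusted p = 7.9e-05 and 7.2e-05). CEBPB and GDF15 fell by 2.30 and 1.56 on the log2 scale (adjusted p = 4.2e-05 and 0.00041). Named after their values were seen, CHAC1, SESN2 and ASNS, targets that usually follow ATF4, were not called (adjusted p = 0.12, 0.078 and 0.36): CHAC1 was at 53.6, 12.9 and 68.8 CPM untreated and 10.8, 14.4 and 36.6 CPM with curcumin. Without curcumin replicate 3 CHAC1 was called lower (-1.84, adjusted p = 0.019). TRIB3, a pseudokinase gene induced by CHOP and also named after its values were seen, was called higher (1.31, adjusted p = 0.036), but not without that library (0.75, adjusted p = 0.15). ATF3, named later too, rose from 42.4, 18.1 and 61.7 CPM to 171, 192 and 291 CPM (2.42, edgeR adjusted p = 0.00049). The remaining targets called higher were PHGDH and WARS1. Those called lower besides CEBPB and GDF15 were ATF5, SLC7A11, SLC7A5, CTH and JDP2.

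**Figure D4:**
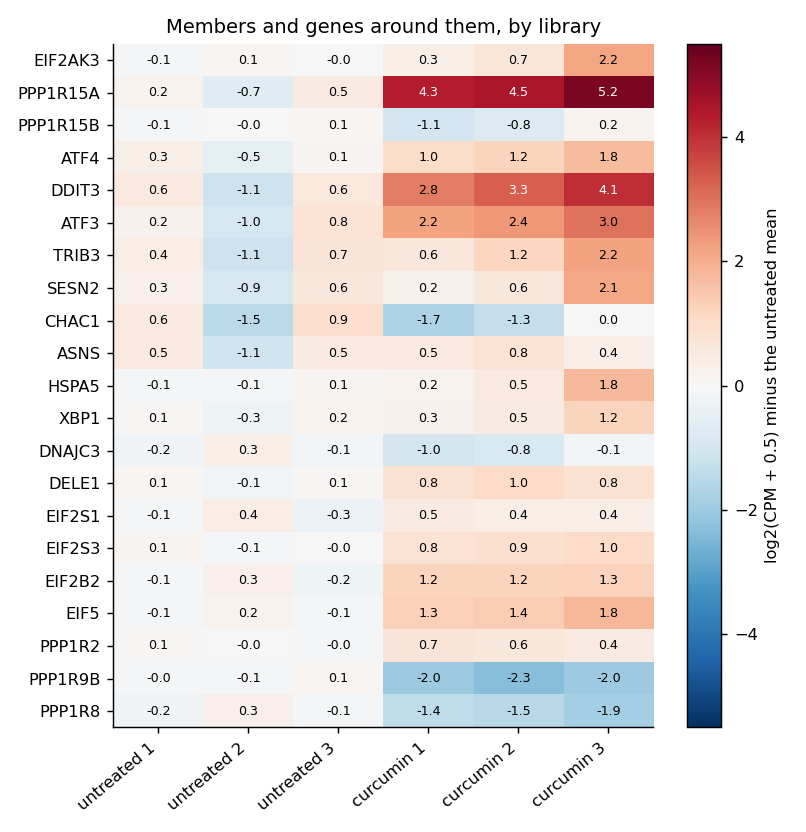
Each cell gives log2(CPM + 0.5) in a library minus the mean of the untreated libraries, for 3 members and 18 genes around them, some of them chosen after their values were seen. PPP1R15A reads 4.3, 4.5 and 5.2 in the curcumin columns, ASNS 0.5, 0.8 and 0.4, and untreated replicate 2 is the lowest untreated column for the rows from ATF4 to ASNS.

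PP1 has many other regulatory subunits that share its catalytic genes. Of 40 further genes with a PPP1R symbol 29 were tested, of which 8 were higher and 8 lower (median 0.03), near the 27.2% and 28.9% of all tested genes. PPP1R27 rose from under 0.4 CPM to 5.38 to 7.89 CPM (4.83, edgeR adjusted p = 3.2e-05), a rise on the scale of PPP1R15A from a far lower level, and the inhibitor gene PPP1R14B rose by 1.28 (adjusted p = 0.00022; 0.30, adjusted p = 0.17 with the length trend removed). The spinophilin gene PPP1R9B fell from 236 to 269 CPM to 48.5 to 62.3 CPM (-2.11, adjusted p = 1.3e-05), and PPP1R8, a nuclear PP1 subunit, fell by 1.63 on the log2 scale (adjusted p = 0.00011). PPP1R2, which encodes inhibitor-2, rose by 0.60 (adjusted p = 0.0048), and PPP1R12A, the myosin-targeting subunit, fell by 0.96 (adjusted p = 0.00057). PPP1R10, in the major histocompatibility region, had counts of 1, 0 and 442 untreated and 0, 789 and 0 with curcumin and was not tested. Among 8 tested catalytic genes of the related PPP phosphatases 2 rose (PPP4C by 0.69 and PPP6C by 0.45) and 1 fell (PPP3CA by 0.42 on the log2 scale; adjusted p = 0.0026, 0.019 and 0.019), with a median of 0.19, beside log2 fold changes of 0.29, -0.05 and 0.42 for PPP1CA, PPP1CB and PPP1CC. With the length trend removed PPP4C was at 0.00 and PPP3CA at -0.08, neither called. The call of PPP6C was kept in 9 of 16 alternatives and lost when any one of untreated replicates 1 and 3 and curcumin replicates 1 and 2 was left out (adjusted p = 0.055 to 0.074).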

How the data were processed

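The 6 libraries were made from total RNA with a SMARTER mRNA-Seq kit, per the labels' protocols. The authors deposited 1 table of estimated counts per gene, which need not be whole and carry no scaling between libraries; aligner, counter and annotation: not given in the sources used here. Builds GRCm38 and mm10 appear in the submitters' processing notes, whereas all 35106 rows carry human Ensembl identifiers, of which 35003 were found in GENCODE release 29 (GRCh38), the source of positions, exon numbers and lengths. Promoter windows came from RefSeq (GRCh38.p14).

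Counts were rounded and TMM-scaled after filterByExpr had removed low genes (settings of 10 for the count and 15 for the total), then tested with edgeR 4.0.16 (R 4.3.3) over all 6 libraries with no other term, with Benjamini-Hochberg adjustment over all genes tested. This step was also tested on simulated data. SE is the log2 fold change over the root of its F statistic. Ratios within a library used 0.5 added counts and two-sided exact permutation tests (scipy 1.17.1). Alternatives were DESeq2 1.42.0, limma-voom (limma 3.58.1), other scalings and filters, protein-coding genes only, a loess length trend (span 0.3), the replicate block and each library left out; the shorter transcript lengths were added after seeing the data. Besides the members, named genes are the 2 highest-ranked calls per direction of each list, 12 genes tied to a member by role, and the 3 nearest profiles of 3 members; others are said to be chosen later. Members and lists were chosen with earlier results of these data known. Replicates of a group differed by more than sampling noise (chi-square per degree of freedom 11.1 to 71.2), and intervals cover no error beyond these libraries.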

Additional observations from a re-analysis of the deposited data

How the results depend on the processing

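PPP1R15A was called higher under all 16 alternatives (log2 fold change 3.81 to 4.88); the other members depended on the scaling, the length trend or single libraries, and the cause was not tested. With library size alone, which called 9.62% of all tested genes higher and 56.5% lower, 1 member was called higher and 7 lower, and the counts higher and lower were 1 and 3 for eIF2 and eIF2B, 3 and 7 for the kinase regulators, 3 and 14 for the stress response targets, 0 and 4 for the other ER stress sensors, 0 and 10 for the interferon list, 0 and 5 for the other PPP catalytic genes and 4 and 17 for the PP1 regulatory subunits. This setting reversed EIF2AK1 (-0.54), PPP1CA (-0.51), PPP1CC (-0.39), EIF2S1 (-0.43), ISG15 (-0.0071), PPP1R2 (-0.20), PPP4C (-0.11), PPP6C (-0.35), PRKRA (-0.32) and XBP1 (-0.12). With the 100 most abundant genes left out of the library size 18.4% of all tested genes were higher and 40.7% lower. Of the members 1 was higher, and EIF2AK1 (-0.10) and PPP1CA (-0.0689) reversed. In that setting 3 genes of eIF2 and eIF2B were higher and 1 lower, 5 kinase regulators were lower, and 1 ER stress sensor, 1 interferon gene, 0 PPP catalytic genes and 4 PP1 regulatory subunits were higher. With the length trend removed 1 member, 1 gene of eIF2 and eIF2B, 2 ER stress sensors and 0 PPP catalytic genes were lower, and 1 ER stress sensor was higher. That setting called 25.5% of all tested genes higher and 22.5% lower. It reversed EIF2AK2 (0.21), PPP1CA (-0.37), PPP1CB (0.34), GCN1 (0.47), ISG15 (-0.37), PPP4C (-0.0012) and PRKRA (-0.0215), and the log2 ratios of EIF2AK4 to EIF2AK2 (-0.25), PPP1CA to PPP1CB (-0.70) and PPP1CC to PPP1CB (-0.0552). With a mean of at least 50 counts 1 interferon gene was higher, beside 29.1% of all tested genes.

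With 1 library left out at a time, 1 to 4 members were higher (1 without untreated replicate 1 or 3) and 1 to 3 lower (1 without untreated replicate 2). The ranges were 1 to 2 ER stress sensors higher, 3 to 8 interferon genes lower (3 without untreated replicate 1), 1 to 3 PPP catalytic genes higher and 0 to 1 lower. Over all tested genes the share higher ran from 23.1% (without curcumin replicate 2) to 27.5% (without curcumin replicate 3). The share lower ran from 23.9% (without untreated replicate 1 or curcumin replicate 2) to 30.8% (without curcumin replicate 3). The log2 ratio of EIF2AK4 to EIF2AK2 ran from -0.0039 (without curcumin replicate 1) to 0.26, and PPP1CB ran from -0.164 (without curcumin replicate 1) to 0.11 (without curcumin replicate 3).

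Whether replicate numbers pair the samples was not settled: the correlation of deviations between same-numbered libraries was 0.04, 0.023 and 0.111. Each curcumin library correlated best with its own number, though replicates 1 and 2 did so narrowly (next best 0.039 and 0.018). Untreated replicate 2 correlated best with curcumin replicate 1 (0.039). With the replicate block 3683 genes were higher and 4011 lower, against 3732 and 3964 without it. Among the members it changed the calls of PPP1R15B (-0.55, edgeR adjusted p = 0.0434) and PPP1CC (0.42, adjusted p = 0.0552). It took the genes called higher from 6 to 5 for eIF2 and eIF2B, from 8 to 9 for the stress response targets and from 8 to 7 for the PP1 regulatory subunits. A floor of 3 counts was 0.114 to 0.238 CPM, far below every member.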
